A study of Rattus with 27 samples.

Results

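The genes described here encode proteins that neutrophils store in their granules or hold in their cytosol. The list has 10 members, each read by a single probe, out of 14506 genes with a probe naming 1 gene: Ngp, Lcn2, Camp, Ltf, Mmp8, S100a8, S100a9, Mpo, Elane and Prtn3. They were chosen by function, as stored or calprotectin proteins, after the white blood cell values of Ngp and Lcn2 in this series had been seen to be high in one group, so the comparisons of groups within white blood cells are given as a description, without p-values and with nothing read from their counts of genes past a threshold. The rule has no threshold on the values. The spleen, the brain and the differences between tissues were not used to draw up the list and were tested. The sham white cell arrays in the tissue comparison are also the baseline of the values that had been seen. For Ngp and Lcn2 the differences of sham white cells from other tissues are therefore a description.

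RNA of 9 Sprague Dawley rats, killed at 6 h, was measured on 27 Affymetrix rat arrays: for every rat, 1 of white blood cells separated from blood, 1 of spleen and 1 of brain. Sham rats had anaesthesia and separation of the vessels alone, and rats of the other 2 groups underwent middle cerebral artery occlusion (MCAO), a rat model of ischaemic stroke, as the treatment protocol states. Samples of these are titled model and vehicle, while the protocol names a vehicle control and a group given YJ (Yiqi Jiedu formulae) at 25 mg/kg, and no label says which titled group was given YJ. The names model-labelled and vehicle-labelled are used for them below, and whether a difference between these groups belongs to YJ cannot be told from the labels. The rats' age is not given in the sources used here. Brain and spleen were whole homogenates, so each value is an average over all cells of the sample, and fewer cells of a type cannot be told apart from less RNA per cell. Values are log2 intensities; a difference of 1 is a doubling. Each group has 3 rats per tissue, and that number limits the precision. Array values are listed by rat number throughout: sham rats 3, 4 and 5, model-labelled rats 1, 2 and 3, vehicle-labelled rats 2, 4 and 5.

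Neutrophils make their granules in sequence while they mature in the bone marrow, and in rodents also in the spleen. Azurophil granules are filled at the promyelocyte stage with myeloperoxidase (Mpo) and with the serine proteases neutrophil elastase (Elane) and proteinase 3 (Prtn3). Specific granules follow at the myelocyte stage with lactoferrin (Ltf), neutrophil gelatinase-associated lipocalin (Lcn2), cathelicidin (Camp), neutrophilic granule protein (Ngp) and collagenase 2 (Mmp8), while S100a8 and S100a9 encode the paired subunits of calprotectin, an abundant cytosolic protein. Transcripts for azurophil proteins are largely lost as the cell matures, and circulating neutrophils carry the proteins with little of that RNA.

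The tissues matched their labels by marker lists. The mean over 11 measured genes of neurons, astrocytes and oligodendrocytes lay between 8.73 and 9.57 in brain arrays and between 4.26 and 4.77 in the other arrays, and that of 12 T and NK cell genes between 8.30 and 9.18 in white blood cells, between 7.05 and 7.98 in spleen and between 4.21 and 4.39 in brain. The white blood cell arrays also held platelet RNA, with a mean over 5 measured platelet genes of 11.6 to 12.02, against 4.77 to 5.27 in brain, and red cell RNA that differed between groups, as described below. Some arrays stood apart from their group. In brain, the mean of 4 measured cortical genes was 5.91 in sham rat 5 and 6.72 in vehicle-labelled rat 2 and lay between 8.80 and 9.65 in the other 7, and the mean of 11 hypothalamic and thalamic genes was 8.39 in sham rat 5 against 4.86 to 5.51. In spleen, the mean of 6 digestive enzyme genes of the pancreas was 5.75, 4.84 and 4.95 in vehicle-labelled rats 2, 4 and 5. It was 4.31 to 4.60 in sham and 4.40 to 4.55 in model-labelled spleens, so every vehicle-labelled spleen lay above the others, with rat 2 the highest. These last 3 lists were added after the values were seen.

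In white blood cells, the specific granule genes Ngp, Lcn2, Camp and Mmp8 and the calprotectin gene S100a9 were higher in all 3 vehicle-labelled rats than in all 3 sham rats. Ltf, S100a8 and the azurophil granule genes Mpo, Elane and Prtn3 were not. In model-labelled rats, which also had MCAO, none of the 10 genes stood apart from sham. The largest differences, those of Ngp and Lcn2, were above 10-fold.

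Ngp, which encodes a cathelicidin-related protein of specific granules, read 4.25, 3.60 and 3.93 in sham and 4.20, 3.99 and 4.67 in model-labelled, with 7.89, 7.04 and 7.78 in vehicle-labelled white cells. Sham and model-labelled arrays overlapped, and every vehicle-labelled array lay above all 6 of them. The vehicle-labelled mean, 7.57 ± 0.46 (SD, n = 3), exceeded the sham mean, 3.93 ± 0.33 (SD, n = 3), by 3.64 ± 0.23 (standard error from limma), a 12.5-fold difference. It exceeded the model-labelled mean, 4.29 ± 0.35 (SD, n = 3), by 3.28 ± 0.23, or 9.74-fold.

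Lcn2 encodes an iron-siderophore binding lipocalin of specific granules that other cells also make in inflammation. Its values were 5.31, 4.76 and 5.04 in sham and 5.21, 4.92 and 5.72 in model-labelled, with 8.80, 8.06 and 8.61 in vehicle-labelled white cells. As for Ngp, only the vehicle-labelled arrays stood apart, and rat 4 was the lowest of them for both genes. The difference from sham was 3.45 ± 0.22 (10.95-fold) and that from the model-labelled group 3.21 ± 0.22 (9.23-fold). The 2 genes ran together over the 9 arrays, with r = 0.999, and within groups too, with r = 0.98 after the group means were removed. These correlations describe 9 arrays that share a platform and a normalization.

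Camp, the gene of the cathelicidin antimicrobial peptide, read 4.77, 4.41 and 4.85 in sham and 4.28, 4.65 and 4.38 in model-labelled, with 5.56, 5.48 and 5.38 in vehicle-labelled white cells. The vehicle-labelled arrays were again above the other 6, by far less than for Ngp and Lcn2: 0.80 ± 0.14 from sham and 1.04 ± 0.14 from the model-labelled mean.

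Mmp8, the neutrophil collagenase gene, had the largest SD of the 10 within the model-labelled and within the vehicle-labelled group (1.05 and 1.20, n = 3 each), though not within sham. Sham white cells read 6.57, 6.19 and 6.08, model-labelled white cells 6.00, 6.05 and 7.84, and vehicle-labelled white cells 8.51, 9.90 and 7.52. Vehicle-labelled arrays lay above sham without overlap, by 2.36 ± 0.52, but vehicle-labelled rat 5 lay below model-labelled rat 3, so that the 2 operated groups overlapped and differed by 2.01 ± 0.52. Vehicle-labelled rat 4, the highest for Mmp8, had the lowest vehicle-labelled values of Ngp and Lcn2.

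Ltf, which encodes the iron-binding protein lactoferrin, was 4.26, 4.17 and 4.59 in sham and 4.25, 4.20 and 4.31 in model-labelled, with 4.21, 4.27 and 4.39 in vehicle-labelled white cells. The groups overlapped fully. Over all 27 arrays the probe stayed between 3.74 and 4.59, and no array of any tissue read high.

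**Figure D1:**
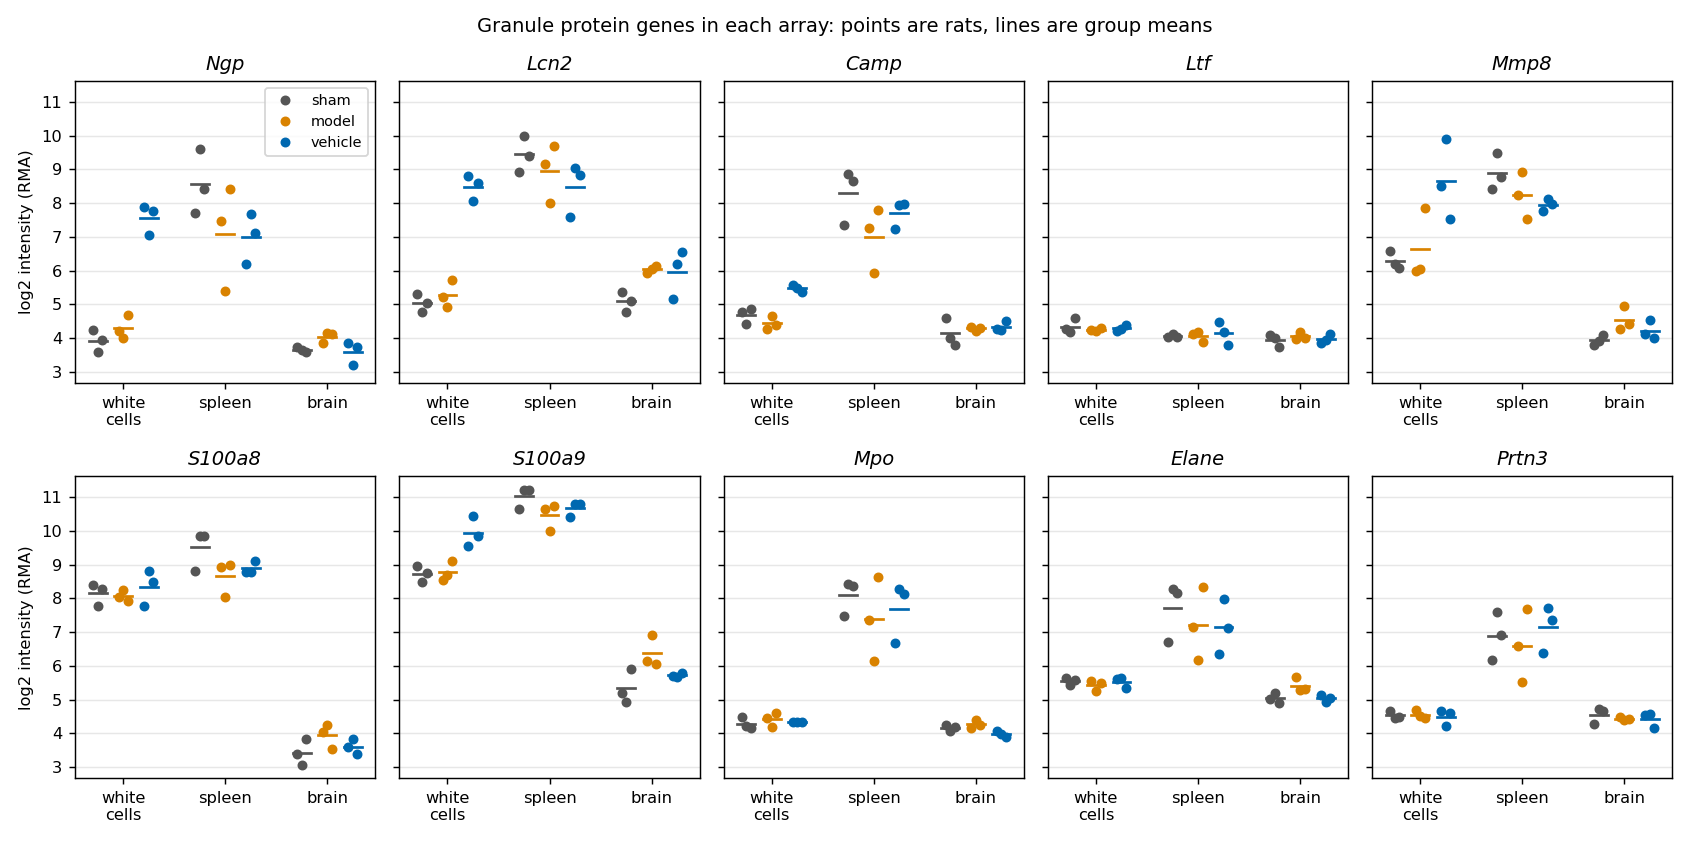
Log2 intensity of each of the 10 genes (vertical axis, same scale in every panel) in white blood cells, spleen and brain. Points are rats, with 3 per group, and lines are group means. Vehicle-labelled white cells stand above sham without overlap for Ngp, Lcn2, Camp, Mmp8 and S100a9, and Mpo, Elane and Prtn3 read high in spleen alone.

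The calprotectin genes parted from each other. S100a8 read 8.38, 7.76 and 8.29 in sham and 8.04, 8.26 and 7.91 in model-labelled, with 7.76, 8.80 and 8.48 in vehicle-labelled white cells, so that all 3 groups overlapped and the difference between vehicle-labelled and sham was 0.20 ± 0.23 (95% interval -0.29 to 0.70). S100a9, its binding partner, read 8.95, 8.49 and 8.76 in sham and 8.55, 8.68 and 9.10 in model-labelled, with 9.54, 10.44 and 9.84 in vehicle-labelled white cells. For S100a9 the vehicle-labelled arrays stood above the other 6, by 1.21 ± 0.21 from sham and 1.16 ± 0.21 from the model-labelled mean. S100a8 and S100a9 are neighbours in RefSeq's annotation of the rat genome, as are Elane and Prtn3. Whether the 2 calprotectin genes differ in their group differences was not tested.

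The azurophil granule genes were level in white blood cells. Mpo, whose enzyme makes hypochlorous acid, read 4.48, 4.22 and 4.16 in sham and 4.46, 4.18 and 4.60 in model-labelled, with 4.34, 4.32 and 4.33 in vehicle-labelled rats. Elane read 5.63, 5.43 and 5.58, then 5.55, 5.26 and 5.49, then 5.60, 5.63 and 5.35 in the same order of groups. Prtn3 read 4.67, 4.46 and 4.49, then 4.70, 4.51 and 4.44, then 4.66, 4.22 and 4.60. In each of these genes all 3 groups overlapped, and the vehicle-labelled mean was within 0.05 of the sham mean, with 95% intervals that ended at -0.34 and 0.33 at the widest. The white cell arrays of Elane and Prtn3 also lay within the span of their own brain arrays (5.26 to 5.63 against 4.90 to 5.66 for Elane, 4.22 to 4.70 against 4.16 to 4.72 for Prtn3), and for Mpo 3 of 9 white cell arrays lay above all brain arrays. The top of the Elane brain span was the array of model-labelled rat 1. Within sham rats, Elane in white cells, 5.43 to 5.63, lay above brain, 4.90 to 5.18, without overlap.

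Of the 10 genes, 5 had an adjusted p under 0.05 (limma, Benjamini-Hochberg over all genes; a gene under this threshold is said to be called) and were higher in vehicle-labelled than in sham white cells, and the same 5 did not overlap. Of all genes 2.01% were called, 1.58% higher, and 15.3% did not overlap, 5.38% with vehicle-labelled higher. Against the model-labelled group 4 were called higher (Ngp, Lcn2, Camp and S100a9), where 1.56% of all genes were called and 1.26% were called higher. These 4 did not overlap, against 18.9% of all genes, 8.52% with vehicle-labelled higher. The list was drawn up with these values known, so the threshold is no test here, and nothing is read from these counts or shares. Model-labelled against sham white cells gave 0 of 10, where limma called 0% of all genes; 880 genes (6.07%) and 0 of the 10 had an unadjusted p under 0.05. In that comparison 0 of the 10 stood without overlap, against 11.1% of all genes. The median difference over the 10 genes was 0.50 for vehicle-labelled minus sham, 0.66 for vehicle-labelled minus model-labelled and 0.03 for model-labelled minus sham, against -0.06, -0.02 and -0.04 over all genes. The comparisons share arrays, sham or vehicle-labelled, and are not independent of each other.

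These counts changed with the arrays and the settings, while the differences moved less. Mmp8 left the count against sham without vehicle-labelled rat 4, where its difference was 1.74, and without vehicle-labelled rat 2 or any one of sham rats 3, 4 and 5, where it was 2.26 to 2.51. With all arrays kept, it also left the count after quantile normalization (2.31) and median centring (2.42), and with all probes or a variance trend (2.36 in both). Camp left both counts in a fit of all 27 arrays, at the same differences, and with the rat number as a replicate block (0.74 from sham and 1.02 from the model-labelled mean). Against the model-labelled group, Mmp8 entered the count without model-labelled rat 3 (2.62) or vehicle-labelled rat 5 (2.58), with all 27 arrays (2.01) and with array weights (2.53), and S100a9 left it without model-labelled rat 1 (1.05) and with the number block (1.06).

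**Figure D2:**
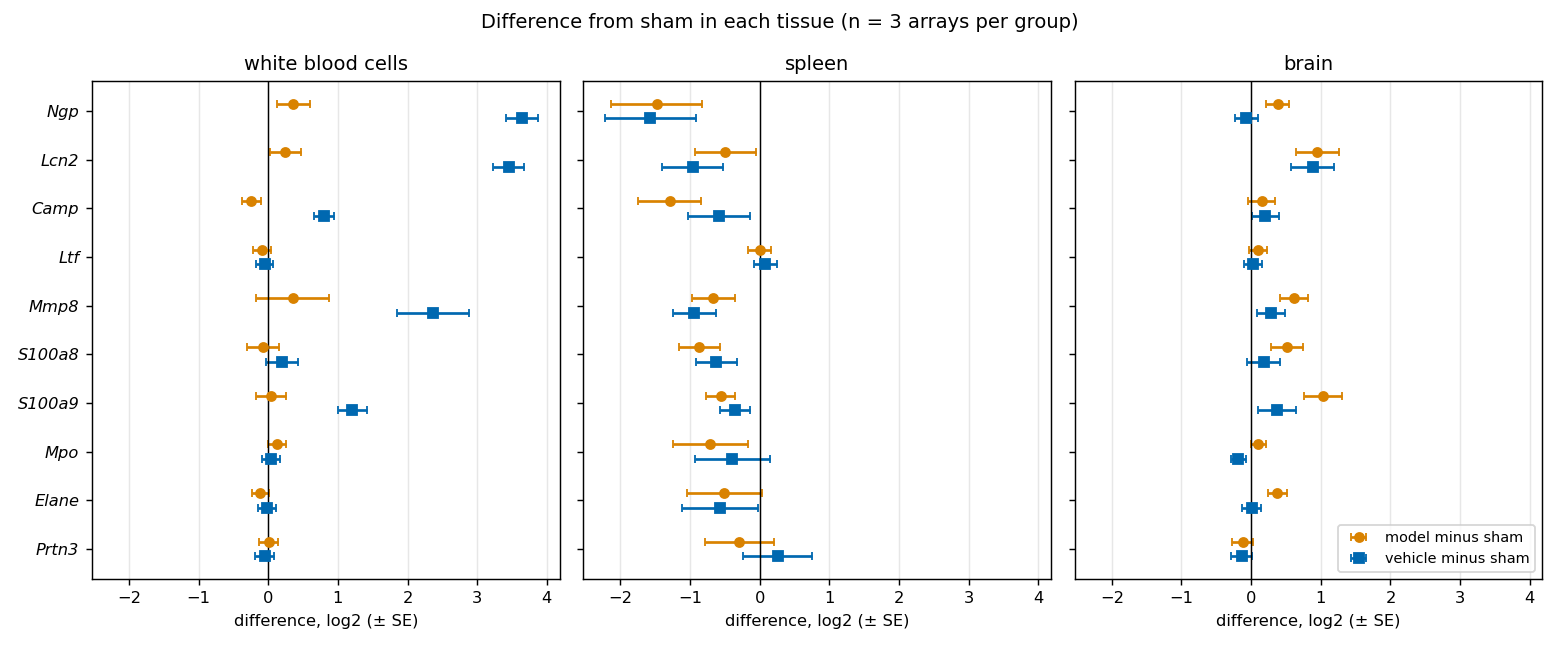
Difference from sham on the log2 scale (horizontal axis) for each gene in white blood cells, spleen and brain, as model-labelled minus sham (circles) and vehicle-labelled minus sham (squares), with limma's standard errors as bars and n = 3 arrays per group. Ngp and Lcn2 lie at 3.64 and 3.45 for vehicle-labelled white cells and near 0 for model-labelled white cells. In spleen most points lie below 0, and in brain S100a9 and Lcn2 lie highest for model-labelled rats.

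Other granule genes were read from lists of textbook genes, which were also drawn up with earlier results of these data known. The white cell counts in this and the next 2 paragraphs are therefore a description. Of all genes, 1.58% were called higher in vehicle-labelled than in sham white cells, and 1.26% higher than in model-labelled white cells. Of 19 measured genes of specific, gelatinase and secretory granules, 2 were called, both higher, in vehicle-labelled against sham white cells: Pglyrp1, a peptidoglycan recognition protein of specific granules, by 2.44 ± 0.34, and Olfm4, a marker of a neutrophil subset, by 2.13 ± 0.24. Pglyrp1 read 6.23, 5.78 and 5.35 in sham and 6.17, 5.83 and 7.05 in model-labelled, with 8.23, 8.92 and 7.54 in vehicle-labelled white cells. Olfm4 read 3.45, 3.53 and 3.38, then 3.59, 3.39 and 4.36, then 6.09, 5.16 and 5.51. Both separated the vehicle-labelled arrays from the other 6, as Ngp and Lcn2 did, and both were also called against the model-labelled group (1.88 and 1.81). The list's median difference from sham was 0.22. Of 11 other azurophil and promyelocyte genes 1 was called higher, Ctsc, the protease that activates the granule serine proteases (0.82 ± 0.14), and the median was 0.14. Of 7 measured alpha-defensin genes 0 were called in either operated group, and the median was -0.02 for vehicle-labelled minus sham. The neutrophil peptide genes Np4 and RatNP-3b of that list were not measured.

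Genes of mature neutrophils, taken as a list mean, differed in another way between the groups. Of 16 measured, 5 were called higher in vehicle-labelled than in sham white cells, led by the receptor genes Trem1 (0.71), Clec4d (1.25), Ptafr (0.88) and Fpr1 (2.10), and 0 were called between the vehicle-labelled and model-labelled groups. The mean over the list was 7.30 to 7.65 in sham and 7.84 to 8.09 in model-labelled, with 7.93 to 8.60 in vehicle-labelled white cells. By this mean both operated groups lay above sham and overlapped with each other. Single genes were mixed. Trem1 read 9.05, 9.09 and 9.10 in sham, 9.59, 9.82 and 9.51 in model-labelled and 9.64, 9.85 and 9.89 in vehicle-labelled white cells. Fpr1 read 4.41, 3.60 and 4.02, then 4.14, 4.06 and 4.98, then 5.95, 7.39 and 4.98, so its model-labelled arrays overlapped sham. Csf3r, the receptor for granulocyte colony-stimulating factor, was called higher in vehicle-labelled than in sham white cells (0.72 ± 0.13) and was the only one of 11 measured regulators of granulocyte differentiation to be called. Its model-labelled mean lay 0.84 ± 0.13 above sham and was not called. Cebpe and Gfi1, transcription factors needed to form specific granules and granulocytes, were not called (-0.18 ± 0.12 and -0.29 ± 0.16 for vehicle-labelled minus sham).

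Red cell genes stood out alongside the granule genes. Of 12 measured erythroid genes 11 were called higher in vehicle-labelled than in sham white cells and 10 higher than in model-labelled white cells, among them Alas2, which starts haem synthesis (2.66 and 1.57), and Bpgm, a red cell glycolytic enzyme (2.83 and 1.84). The list mean was 7.41 to 7.97 in sham and 8.13 to 8.19 in model-labelled, with 9.30 to 10.2 in vehicle-labelled white cells. Among vehicle-labelled rats it was 10.2 in rat 2, 9.93 in rat 4 and 9.30 in rat 5, and Ngp was 7.89, 7.04 and 7.78. Of 11 cell cycle genes 2 were called higher against sham, Rrm2 (1.04) and Ccnb2 (0.73), with list means of 5.07 to 5.35 in vehicle-labelled and 4.72 to 4.95 in the other white cells. Of 12 genes of eosinophils, basophils and mast cells, Prg2, an eosinophil granule protein, was called higher in vehicle-labelled than in sham white cells (0.73), and Prg2 (0.80) and Gata1, a transcription factor shared with the red cell lineage (1.34), were called against the model-labelled group. The list mean was 4.23 to 4.43 in vehicle-labelled and 4.04 to 4.28 in the other white cells. Platelet, monocyte, T and NK cell and B cell lists had 0 called genes. The part of red cells, eosinophils or dividing cells in the values of the granule genes was not tested.

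**Figure D3:**
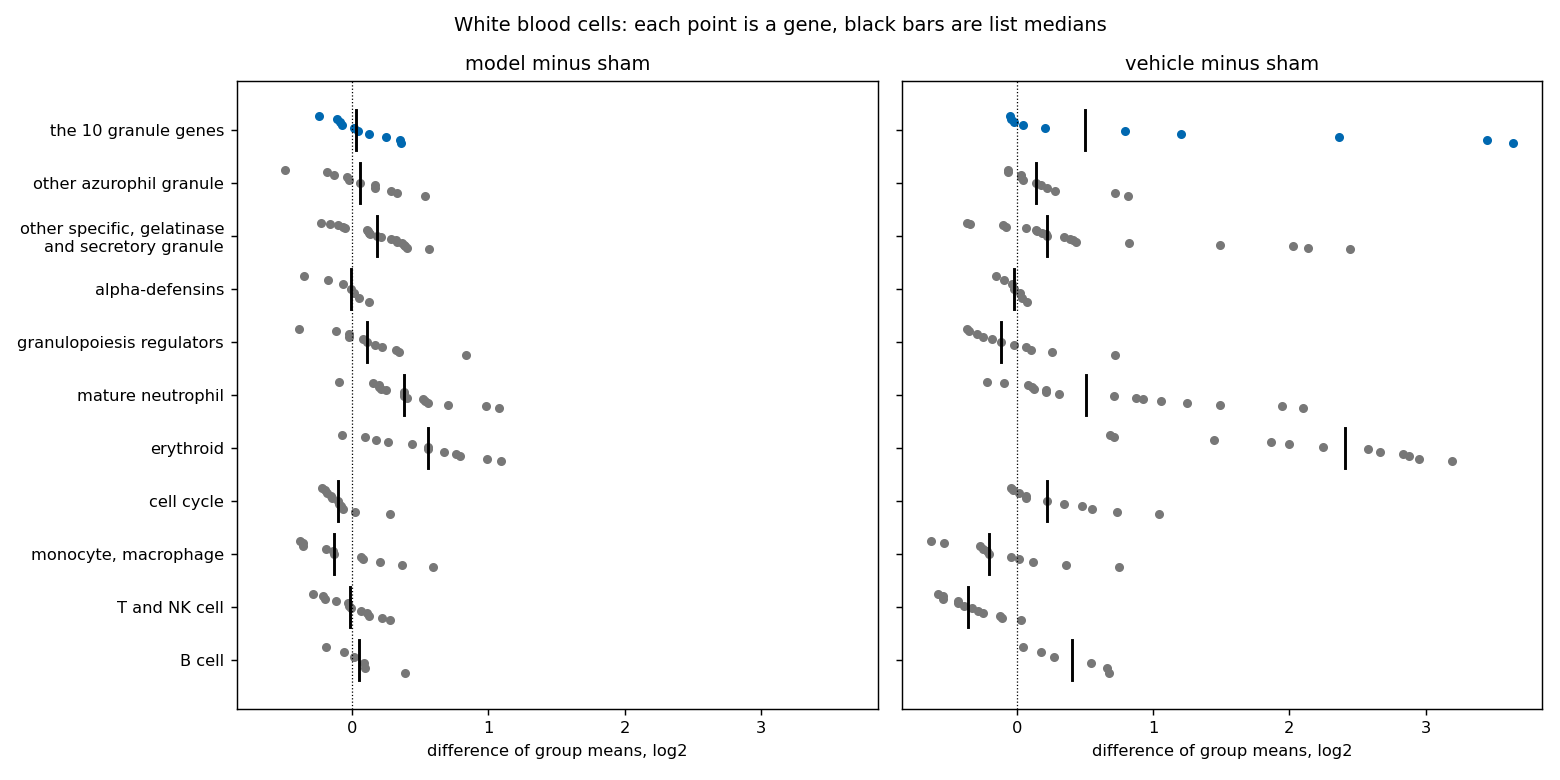
Differences of group means on the log2 scale (horizontal axis) in white blood cells, model-labelled minus sham on the left and vehicle-labelled minus sham on the right. Each point is a gene, each row a list, and black bars are list medians. The granule genes spread from -0.05 to 3.64 on the right and from -0.24 to 0.36 on the left, and the erythroid list has the highest median on the right, at 2.41.

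For each granule class, the other genes most like its mean over the 9 white cell arrays were found by Pearson r among 14468 genes. For the 5 specific granule genes these were Ubac1 (r = 0.98), a subunit of a ubiquitin ligase, Dapk2 (r = 0.98), a death-associated protein kinase, Ctsd (r = 0.98), the lysosomal protease cathepsin D, Bcl2l13 (r = 0.97) and Akr7a3 (r = 0.97). Ubac1 averaged 6.31, 6.65 and 8.58 in sham, model-labelled and vehicle-labelled white cells, so it too separated the vehicle-labelled group. For S100a8 and S100a9 they were U2af1l4 (r = 0.97), Dgat2 (r = 0.96), Tpi1, Lum and Dctn3 (r from 0.92 to 0.93). For the azurophil genes they were Slc12a3, Kcna1, Chpf, Or10ak7b and Or52b1, with r from 0.92 to 0.96. These values describe 9 arrays in 3 groups, and a gene that differs between the groups scores high by that alone.

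Levels in the sham rats set the tissues apart. All members except Ltf were lower in sham white cells than in sham spleen, and 9 of 10 were called lower (19.3% of all genes were called lower, and 39% either way). White cells minus spleen was -4.65 ± 0.51 for Ngp (25.1-fold lower), -4.41 ± 0.40 for Lcn2, -3.80 ± 0.40 for Mpo and -3.61 ± 0.35 for Camp. Since sham white cells were the baseline when Ngp and Lcn2 were seen to be high, the calls of these 2 genes are a description. The smallest of the 9 differences was that of S100a8, -1.37 ± 0.30 (adjusted p = 0.000673). For Mmp8, Prtn3, S100a9 and Elane it was between -2.61 and -2.17. The p-values here are from limma over 27 arrays with Benjamini-Hochberg adjustment, as are those of the other tests between tissues. Ltf differed by 0.28 ± 0.14 (adjusted p = 0.131).

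Against sham brain, 4 members were called higher in sham white cells: S100a8 by 4.72 ± 0.30 (adjusted p = 7.1e-13), S100a9 by 3.39 ± 0.26 (adjusted p = 4.11e-11), Mmp8 by 2.34 ± 0.46 (adjusted p = 1e-04) and Ltf by 0.39 ± 0.14 (adjusted p = 0.0228). In this contrast 31.1% of all genes were called higher and 59% either way. Ltf lost its call without the sham rat 5 array of either tissue (0.27 without the white cell array and 0.29 without the brain array). Ngp (0.27 ± 0.51), Lcn2 (-0.05 ± 0.40), Camp (0.54 ± 0.35), Mpo (0.12 ± 0.40), Elane (0.51 ± 0.40) and Prtn3 (-0.01 ± 0.37) were not called. Their 95% intervals all held 0 and ran from -0.87 at the lowest to 1.34 at the highest. The fit holds 1 variance per gene over all tissues, so these standard errors include the spread of the spleen arrays. For Ngp the SD was 0.33 in sham white cells, 0.08 in sham brain and 0.95 in sham spleen. A missing call therefore does not show equal levels. Elane did not overlap, with white cells higher, where 34.1% of all genes did so. Sham spleen was called above sham brain for 9 of 10, against 27.4% of all genes called higher and 53.6% either way, from 2.34 ± 0.37 for Prtn3 to 6.09 ± 0.30 for S100a8, and Ltf (0.11 ± 0.14) was the exception.

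The vehicle-labelled white cells reached the span of the spleen for some of these genes only. Their mean minus the sham spleen mean of the same gene was -1.01 for Ngp, -0.95 for Lcn2, -0.25 for Mmp8, -1.17 for S100a8 and -1.08 for S100a9. It was -2.82 for Camp, -3.76 for Mpo, -2.19 for Elane and -2.39 for Prtn3. This comparison of means was not tested. In Camp, Mpo, Elane and Prtn3 all 9 spleen arrays lay above all 9 white cell arrays. Other neutrophil lists were mixed between these tissues in sham rats, where 19.3% of all genes were called lower in white cells and 19.7% higher. Of 11 other azurophil genes 3 were called lower in white cells than in spleen, among them Ctsg, cathepsin G (-1.42 ± 0.21, adjusted p = 9.29e-06), and 3 higher, among them Srgn, the core protein of leukocyte granule proteoglycan (0.57 ± 0.13, adjusted p = 0.000815). Of 7 alpha-defensin genes 3 were called lower, led by Defa5 (-6.40 ± 0.37, adjusted p = 1.23e-12), and 0 higher. Of 16 mature neutrophil genes 7 were called higher in white cells, led by Trem1 (2.39 ± 0.25, adjusted p = 3.82e-08), and 1 lower, Fpr1 (-1.19 ± 0.40, adjusted p = 0.0213). Csf3r was higher in white cells by 1.63 ± 0.24 (adjusted p = 7.03e-06).

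In the spleen none of the 10 genes rose or fell in any comparison at an adjusted p under 0.05. The means of 9 of 10 genes were below sham in model-labelled and of 8 of 10 in vehicle-labelled spleens, where 66.4% and 57.4% of all genes were above sham, and the rats of a group differed widely from each other. Of all genes 0.0414% were called for model-labelled minus sham, 0.0483% for vehicle-labelled minus sham and 0% for vehicle-labelled minus model-labelled. At an unadjusted p under 0.05 limma gave 4, 3 and 0 of the 10 genes in that order, against 9.5%, 9.35% and 12.9% of all genes.

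Ngp read 7.71, 9.59 and 8.43 in sham and 7.47, 5.39 and 8.43 in model-labelled, with 6.21, 7.69 and 7.12 in vehicle-labelled spleens. All vehicle-labelled spleens lay just below the sham range, with rat 4 at 7.69 against 7.71 in sham rat 3, and model-labelled spleens overlapped sham. The vehicle-labelled minus sham difference was -1.57 ± 0.66 (95% interval -2.99 to -0.15, adjusted p = 0.489) and the model-labelled minus sham difference -1.48 ± 0.66 (-2.90 to -0.06, adjusted p = 0.513).

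Lcn2 read 8.93, 10.0 and 9.40 in sham and 9.16, 7.99 and 9.70 in model-labelled, with 7.58, 9.04 and 8.83 in vehicle-labelled spleens. Groups overlapped, and the differences from sham were -0.49 ± 0.44 and -0.96 ± 0.44 (adjusted p = 0.781 and 0.531). Camp read 7.36, 8.85 and 8.66, then 7.25, 5.94 and 7.80, then 7.23, 7.93 and 7.97. Camp arrays overlapped between all groups, with differences from sham of -1.29 ± 0.45 in model-labelled (adjusted p = 0.395) and -0.58 ± 0.45 in vehicle-labelled spleens (adjusted p = 0.688). Mmp8 read 8.43, 9.48 and 8.77, then 8.24, 8.91 and 7.54, then 7.78, 8.11 and 7.97. Vehicle-labelled Mmp8 lay below sham without overlap, with a difference of -0.94 ± 0.31 (adjusted p = 0.39), and model-labelled minus sham was -0.66 ± 0.31 (adjusted p = 0.533). Ngp and Mmp8 were the 2 of 10 members with no overlap in that comparison, against 13.2% of all genes, 5.69% in the lower direction. No member was free of overlap in the other spleen comparisons, against 17.3% of all genes for model-labelled minus sham and 14.7% for vehicle-labelled minus model-labelled.

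The calprotectin means were below sham in both operated groups and did not pass the threshold. S100a8 read 8.82, 9.86 and 9.86 in sham and 8.93, 8.03 and 8.98 in model-labelled, with 8.78, 8.78 and 9.11 in vehicle-labelled spleens, with differences from sham of -0.87 ± 0.29 (adjusted p = 0.392) and -0.62 ± 0.29 (adjusted p = 0.537). S100a9 read 10.66, 11.21 and 11.20, then 10.66, 10.00 and 10.73, then 10.42, 10.79 and 10.80, with differences of -0.56 ± 0.21 (adjusted p = 0.456) and -0.35 ± 0.21 (adjusted p = 0.614). In both genes sham rat 3 sat with the operated groups and sham rats 4 and 5 above them.

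The azurophil genes overlapped between all groups. Mpo read 7.49, 8.41 and 8.36 in sham and 7.37, 6.13 and 8.64 in model-labelled, with 6.69, 8.28 and 8.12 in vehicle-labelled spleens. Elane read 6.71, 8.29 and 8.16, then 7.14, 6.17 and 8.33, then 6.34, 7.98 and 7.13. Prtn3 read 6.17, 7.58 and 6.91, then 6.60, 5.52 and 7.67, then 6.37, 7.70 and 7.36. Sham rat 3, model-labelled rat 2 and vehicle-labelled rat 2 were the lowest of their groups in all 3 genes, and the differences between groups lay between -0.71 and 0.55 with adjusted p from 0.703 to 0.979. Ltf read 4.03, 4.13 and 4.03, then 4.12, 4.19 and 3.89, then 4.47, 4.17 and 3.79, with no separation.

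In spleen most of the genes went up and down together from rat to rat. Leaving out Ltf, a choice made after its flat values were seen, sham rat 3 lay below the sham mean in 9 of 9 genes and sham rat 4 above it in 9 of 9. Model-labelled rat 2 lay below its group mean in 8 of 9 and model-labelled rat 3 above it in 8 of 9, Mmp8 being the exception both times. Vehicle-labelled rat 2 was below its group mean in 9 of 9, with a median deviation of -0.77. Over the 9 spleen arrays, r between pairs of these 9 genes had a median of 0.81 over 36 pairs, and 0.91 after group means were removed; the 3 pairs of Mpo, Elane and Prtn3 lay between 0.86 and 0.93. Mmp8 stood outside, with r between -0.19 and 0.34 to the other 8. In white cells the same 36 pairs had a median r of 0.25 and in brain 0.23. These are descriptions over 9 arrays that share a normalization. Vehicle-labelled rat 2 is the spleen with the highest pancreas genes, which were higher in all vehicle-labelled spleens than in the others.

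**Figure D4:**
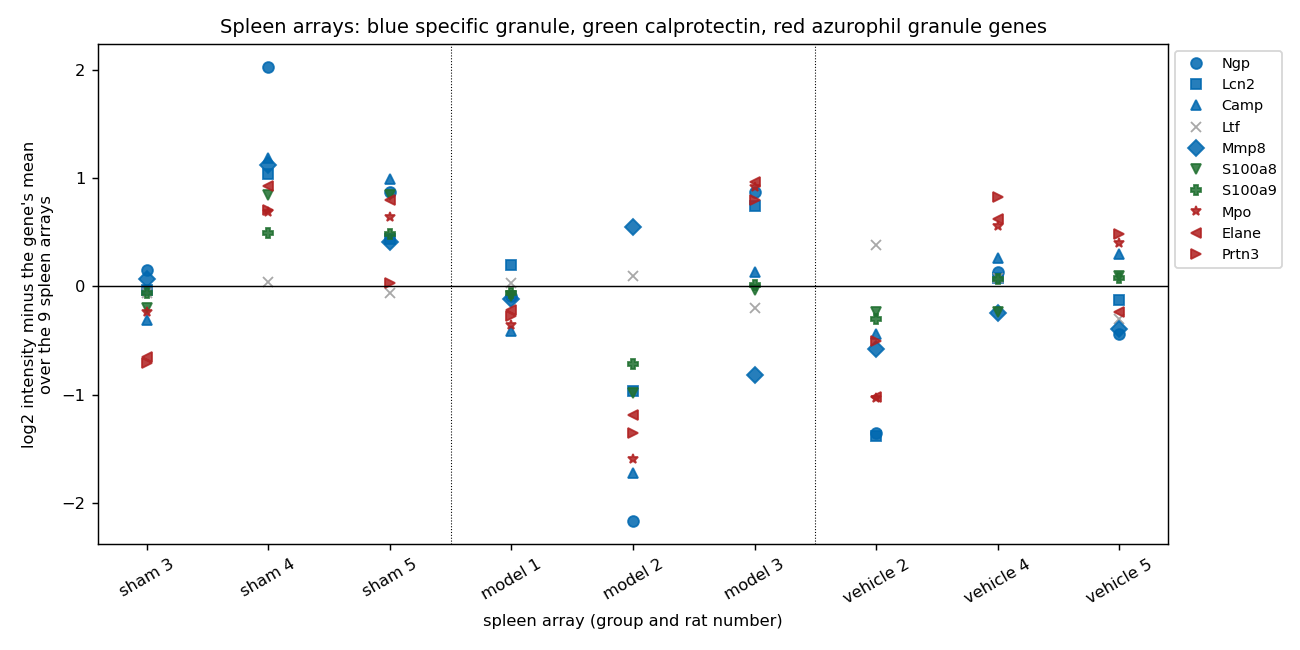
Each spleen array (horizontal axis, group and rat number) with the log2 intensity of each gene minus its mean over the 9 spleen arrays (vertical axis). Blue marks are specific granule genes with Ltf in grey, green are calprotectin genes and red are azurophil granule genes. Most genes of an array move together, high in sham rat 4 and low in model-labelled rat 2 and vehicle-labelled rat 2, while Mmp8 goes the other way in model-labelled rats 2 and 3.

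The median difference over the 10 genes in spleen was -0.61 for model-labelled minus sham and -0.58 for vehicle-labelled minus sham, against 0.07 and 0.04 over all genes. For vehicle-labelled minus model-labelled the median was 0.14. Of the other spleen lists, erythroid genes had a median of -0.84 and cell cycle genes one of -0.74 for model-labelled minus sham, with 0 of 12 and 0 of 11 called, and the list mean of cell cycle genes was 7.46 to 7.82 in sham and 6.67 to 7.24 in model-labelled, with 6.75 to 7.57 in vehicle-labelled spleens. The mean over 12 genes of eosinophils, basophils and mast cells was 5.21 to 6.05 in sham and 5.00 to 5.36 in model-labelled, with 5.49 to 5.90 in vehicle-labelled spleens. Other azurophil genes had a median of 0.01 and mature neutrophil genes one of -0.06 in that comparison, with 0 called in each. The part of red cell precursors, eosinophils, dividing cells or pancreas RNA in the spleen values of the granule genes was not tested.

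By likeness over the 9 spleen arrays, the eosinophil peroxidase gene Epx stood first for the specific granule mean (r = 0.91) and second for the calprotectin mean (r = 0.92, after Rnase17 at 0.93), and Defa5 was among the 5 nearest to the azurophil mean (r = 0.90). Epx averaged 8.69 in sham and 7.67 in model-labelled, with 7.71 in vehicle-labelled spleens.

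In the brain the genes sat low, and none of the 10 passed the threshold in any comparison. The means of 9 of 10 were above sham in model-labelled brains, with S100a9 and Lcn2 highest, and of 7 of 10 in vehicle-labelled brains, with Lcn2 highest, where 55.1% and 52% of all genes were above sham. Of all genes 1.16% were called for model-labelled minus sham, 0.0483% for vehicle-labelled minus sham and 0.0551% for vehicle-labelled minus model-labelled. At an unadjusted p under 0.05 limma gave 5, 1 and 4 of the 10 genes in that order, against 14.4%, 9.33% and 14.3% of all genes.

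S100a9 read 5.20, 4.93 and 5.90 in sham and 6.14, 6.91 and 6.06 in model-labelled, with 5.70, 5.66 and 5.78 in vehicle-labelled brains. Model-labelled brains lay above all sham and all vehicle-labelled brains. Model-labelled minus sham was 1.03 ± 0.27 (95% interval 0.42 to 1.64, adjusted p = 0.137), or 2.04-fold, vehicle-labelled minus sham 0.37 ± 0.27 (adjusted p = 0.751) and vehicle-labelled minus model-labelled -0.66 ± 0.27 (adjusted p = 0.323). Without the brain of sham rat 5, one of the arrays low in cortical genes, the first difference was 1.31 and passed the threshold (adjusted p = 0.0425). It also passed with both such arrays left out (adjusted p = 0.016), an alternative added after the data were seen. Over 22 alternatives it passed in 4, with limma's adjusted p up to 0.487.

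Lcn2 read 5.38, 4.77 and 5.11 in sham and 5.92, 6.04 and 6.15 in model-labelled, with 5.17, 6.20 and 6.54 in vehicle-labelled brains. Every model-labelled brain lay above sham, and so did vehicle-labelled rats 4 and 5, while vehicle-labelled rat 2 lay within the sham range. The differences from sham were 0.95 ± 0.31 (adjusted p = 0.216) and 0.88 ± 0.31 (adjusted p = 0.389). Without the brain of vehicle-labelled rat 2, low in cortical genes, both passed, at 0.95 (adjusted p = 0.0272) and 1.28 (adjusted p = 0.0249). Both passed without that brain and the one of sham rat 5 (adjusted p = 0.0265 and 0.014). Vehicle-labelled rat 2 is not part of the model-labelled minus sham difference and changed only the shared variance there. Over 22 alternatives the model-labelled difference passed in 4 and the vehicle-labelled one in 3, with limma's adjusted p up to 0.487 and 0.774.

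Mmp8 read 3.81, 3.90 and 4.10 in sham and 4.28, 4.95 and 4.42 in model-labelled, with 4.11, 4.54 and 4.00 in vehicle-labelled brains, and S100a8 read 3.38, 3.07 and 3.83, then 4.04, 4.26 and 3.52, then 3.59, 3.83 and 3.40. Model-labelled brains were above sham without overlap for Mmp8 (0.61 ± 0.20, adjusted p = 0.221) and overlapped sham for S100a8 (0.51 ± 0.23, adjusted p = 0.355). Ngp was 3.58 to 3.74 in sham and 3.85 to 4.16 in model-labelled, with 3.21 to 3.84 in vehicle-labelled brains, and Elane 4.90 to 5.18, 5.27 to 5.66 and 4.94 to 5.14. These 2 genes too lay above sham without overlap in model-labelled brains, by 0.38 ± 0.17 and 0.37 ± 0.14 (adjusted p = 0.347 and 0.27).

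The other members differed less from sham. Camp ran from 3.81 to 4.61, Ltf from 3.74 to 4.18, Mpo from 3.89 to 4.38 and Prtn3 from 4.16 to 4.72 over the 9 brains, with differences from sham between -0.19 and 0.20. In all, 5 of 10 members did not overlap for model-labelled minus sham, all higher, where 20.1% of all genes did not overlap and 11.7% did so higher. For vehicle-labelled minus sham 0 of 10 failed to overlap, against 13.4%. For vehicle-labelled minus model-labelled 4 of 10 did so (Ngp, S100a9, Mpo and Elane, all lower), against 21.5% of all genes and 11.5% that were lower. Median differences were 0.38, 0.10 and -0.31 in that order, against 0.03, 0.01 and -0.01 over all genes.

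Among other genes of the lists, the brain of model-labelled rats showed Srgn, the proteoglycan core of storage granules in leukocytes, higher by 1.04 ± 0.15 (adjusted p = 0.0105). Srgn was the only one of 11 other azurophil genes to be called, where 1.16% of all genes were called. The mean over these 11 genes was 5.95 to 6.20 in model-labelled and 5.80 to 5.89 in sham brains, without overlap. Cebpd, a transcription factor of myeloid cells and of astrocytes in inflammation, rose by 1.27 ± 0.17 (adjusted p = 0.00645), and Il6 by 1.37 ± 0.21 (adjusted p = 0.015). Cd14, a receptor of monocytes and microglia, rose by 2.26 ± 0.32 (adjusted p = 0.00901). Of 16 mature neutrophil genes 0 passed the threshold, while 15 had a mean above sham and 8 did so without overlap. Of all genes 55.1% had a mean above sham and 11.7% did so without overlap. The mean over the mature neutrophil list was 4.82 to 4.99 in model-labelled, 4.39 to 4.64 in sham and 4.45 to 4.51 in vehicle-labelled brains. Of 5 platelet genes Itgb3, a platelet integrin subunit also found on other cells, rose by 0.77 ± 0.15 (adjusted p = 0.0471), and the platelet list mean was 4.99 to 5.27 in model-labelled and 4.79 to 4.95 in sham brains. The mean over 11 monocyte and macrophage genes was 6.17 to 6.22 in model-labelled and 5.74 to 5.84 in sham brains, also without overlap. In vehicle-labelled rats 2, 4 and 5 it was 5.81, 6.18 and 6.25, so rats 4 and 5 read as high as model-labelled brains. The mean over erythroid genes was 5.82 to 6.25 in model-labelled and 5.80 to 6.01 in sham brains, with overlap. The part of blood-borne cells in the brain values was not tested.

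Spleen and brain were compared directly by subtracting the brain difference from the spleen difference in a fit of all 27 arrays. For model-labelled minus sham, S100a9 was called (-1.59 ± 0.37, adjusted p = 0.0393), its difference being -0.56 in spleen and 1.03 in brain, and 0.82% of all genes were called in this test, 0.689% below 0. All 10 values were below 0, with a median of -1.33, where 56.1% of all genes were above 0. Most of the 10 genes moved together over the spleen arrays, so these signs are not independent of each other. Ngp at -1.86 ± 0.72 (adjusted p = 0.284), Lcn2 and Camp at -1.44 (adjusted p = 0.285 and 0.209) and S100a8 at -1.38 ± 0.42 (adjusted p = 0.141) were the next, and none of these passed. The S100a9 call was lost without any one of the spleen arrays of sham rats 4 and 5 and model-labelled rats 1 and 2, or the brain arrays of sham rats 3 and 4 and model-labelled rat 2, with differences of -1.69 to -1.32 and adjusted p up to 0.118. Without the spleen of sham rat 3, Camp (-1.91) and S100a8 (-1.73) passed as well. The spleen and brain differences for vehicle-labelled minus sham and for vehicle-labelled minus model-labelled gave 0 called members with limma, against 0.145% and 0.6% of all genes, and 2 and 1 members with an unadjusted p under 0.05, against 9.58% and 15.9%. The largest difference for vehicle-labelled minus sham was that of Lcn2, -1.84 ± 0.56 (adjusted p = 0.233), from -0.96 in spleen and 0.88 in brain.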

How the data were processed

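Expression values were the log2 intensities that the authors deposited for 27 arrays, normalized by RMA per the submitters' processing notes (version not given in the sources used here). No label states the log scale; it was read from the values, which ran from 1.53 to 13.49. Whether RMA was run over all tissues together, detection calls and hybridization batches are not given in the sources used here, so a batch that coincided with a group cannot be told apart from it. Of 27596 probes, 15310 named 1 gene, 323 several and 11963 none in GEO's platform annotation, and 15279 of the first matched RefSeq by Entrez identifier. Each of 14506 genes was read by its brightest such probe, by the mean of all 27 arrays. Groups were compared with limma 3.58.1 in R 4.3.3, within each tissue (9 arrays) or over all 27 arrays (sham tissues, spleen against brain), with Benjamini-Hochberg adjustment over all genes and a threshold of 0.05. Intervals are 95%. Each array of a group and tissue came from a separate rat.

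The 10 genes and the lists were chosen with earlier results of these data known. Named genes are the 10 members, Csf3r, Cebpe and Gfi1, up to 4 called genes with the smallest p per list and comparison, and the 5 genes most like each class mean over white cell arrays, leaving out predicted genes; the same likeness in spleen and brain was added later. Of 182 other listed symbols 155 were measured. The labels give some rat numbers to more than 1 group and state no pairing between groups. Deviations of same-numbered arrays of different groups correlated at -0.47 to 0.38, above 0.1 in 2 of 12 pairs. The 3 tissues of a rat share the animal per the labels. Their deviations correlated at -0.06 to 0.52, above 0.1 in 15 of 27 pairs. Since arrays of the same rat often correlated weakly too, this check cannot tell whether same-numbered arrays shared a day or batch. Alternatives changed the normalization, filter, probe set, variance model, arrays fitted and arrays left out. The fits were tested on simulated data.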

Additional observations from a re-analysis of the deposited data

Results flagged for a closer look

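The S100a9 difference between model-labelled and sham rats was itself different in spleen and brain, by a test of that contrast: spleen effect minus brain effect was -1.59 on the log2 scale (limma over 27 arrays, adjusted p = 0.0393), from -0.56 in spleen and 1.03 in brain. Spleen arrays were lower than the sham mean in 3 of 3 model-labelled rats and brain arrays were higher in 3 of 3. The groups overlapped in spleen, where sham rat 3 read 10.66 against 10.66, 10.00 and 10.73 in the model-labelled rats, but not in brain. The adjusted p was 0.0533 over all probes of the table, and leaving out single arrays gave differences from -1.69 to -1.32 where the call was lost.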

How the results depend on the processing

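Over 3078 differences of the 10 genes under alternatives, 3033 kept their side of the threshold, 27 lost the call and 18 gained it. The sign was kept in 2952 and changed in 126, of which 0 were called under either setting. With a replicate block on the rat number, the members called in vehicle-labelled against model-labelled white cells numbered 2 in place of 4; the labels share numbers between groups that are not the same rats. With the rat as a block in the comparisons between tissues, the calls of the 10 genes did not change. In brain, 0 members were called for model-labelled minus sham, against 1 in a fit of all 27 arrays, 1 with only the 6 arrays compared, and 2 with array weights; 2 were called without the brains of sham rat 5 and vehicle-labelled rat 2, an alternative chosen after seeing the data. For vehicle-labelled minus sham brain, 0 became 1 with array weights and 1 without those 2 brains. Leaving out 1 array at a time gave 0 to 1 for each of these brain comparisons. For spleen effect minus brain effect, model-labelled minus sham, 1 became 0 over all probes and 0 to 3 when 1 array was left out. White cell counts with 1 array left out were 4 to 5 for vehicle-labelled minus sham and 3 to 5 for vehicle-labelled minus model-labelled.

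Counts over all genes moved more. In white cells, 291 genes were called for vehicle-labelled minus sham, 107 to 442 under the other settings, and 226 for vehicle-labelled minus model-labelled, 7 to 555. In brain the 168 for model-labelled minus sham ranged from 0 to 573. With 3 rats a group, probes near 4 log2 units, such as those of Ltf, and no detection calls, a small difference could not be resolved.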

Other observations

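Genes outside the granule lists tracked the brain mean of the specific granule genes over the 9 brain arrays. The nearest were Or6b13 (r = 0.97), Des, the intermediate filament of vessel wall muscle (r = 0.96), Tmem252 (r = 0.96), Esam, an adhesion molecule of endothelium (r = 0.96), and Icam1, which leukocytes bind on endothelium (r = 0.95). Icam1 averaged 5.66 in sham and 7.02 in model-labelled, with 6.39 in vehicle-labelled brains, and Des 4.70, 6.31 and 5.65. These are descriptions over 9 arrays of 3 groups, without a test.

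In white blood cells sham rat 4 lay below the sham mean in 9 of 9 granule genes other than Ltf and sham rat 3 above it in 9 of 9, the reverse of their order in spleen. The deviations in white cells were small, with medians of -0.24 and 0.22, against 0.56 and -0.69 in spleen.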
